A study of Mus musculus with 7 samples.

Results

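The interferon response and antigen presentation genes were followed in mouse liver RNA as 45 listed genes, chosen by symbol as interferon-induced genes (sensors, transcription factors, antiviral effectors and GTPases), MHC class I genes and MHC class II genes. A row of the deposited table was found for 44 of them through the Ensembl identifier, among 14851 genes in all. *Gbp6* had no row and was not analysed here. All 44 passed the filter on low values, a mean of at least 10 normalised counts over the livers, which left 12545 genes for testing. They comprised 31 interferon-induced genes, 9 MHC class I genes and 4 MHC class II genes.

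The series holds livers of 4 *Albumin-Cre; p53FL/FL* mice (FL) and 3 *Albumin-Cre; p53WT/WT* mice (WT), all male, C57BL/6J at backcross generation 10 and about 70 days old. Every mouse had received 1 intraperitoneal dose of carbon tetrachloride (CCl4, 1 mL/kg of a 20% stock in corn oil), a hepatotoxin that hepatocytes turn into a radical, and was sampled 8 h later. No untreated liver was analysed here, so values are levels after CCl4 in both groups. Cre driven by the *Albumin* promoter, which both groups carry, removes floxed *Trp53* in hepatocytes. Which other cells of an FL liver keep the gene was not tested here. Per the study's methods, mice could also carry a Cre-activated red fluorescent reporter. The source names of the WT mice share a prefix that no FL mouse has, and what it stands for is not given. Genotype and whatever the prefix marks cannot be told apart, and p-values measure the spread between single mice.

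Interferons bind receptors on nearly all nucleated cells and act through JAK kinases and STAT proteins. Type I interferon assembles a complex holding STAT2 and IRF9 that binds the interferon-stimulated response element (ISRE), and interferon-γ acts through the gamma-activated site (GAS). Hepatocytes display MHC class I, whereas class II molecules are made mainly by professional antigen-presenting cells such as Kupffer cells, dendritic cells and B cells. The loading of class I depends on immunoproteasome subunits, the TAP transporter and β2-microglobulin.

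Promoter windows of 300 bases, from 250 before to 50 after the start of the gene, were taken from RefSeq (GRCm38.p6) for 34 of the 44 genes, in 39 windows. Both strands were searched for an ISRE, spelled GAAANNGAAA, and a GAS element, spelled TTCNNNGAA. Of 32851 windows of this length over all genes, 3.44% held the ISRE, 8.3% held the GAS and 0.45% held both. Among the members the ISRE was found in 17 of 34 genes and the GAS in 9. All 7 GTPases with a window held the ISRE and 4 of them the GAS. The ISRE was also found for 2 of 2 sensors, 6 of 11 antiviral effectors, 1 of 4 transcription factors (*Stat2*), 1 of 8 class I genes (*B2m*) and 0 of 2 class II genes. Of the immunity-related GTPases, *Igtp*, *Irgm1* and *Irgm2* were higher in FL without overlap between genotypes, against 2.77% of all genes. *Tgtp1* and *Iigp1* overlapped, and *Iigp1* had no window. The windows below are those of *Igtp*, *Irgm2*, *Tgtp1* and *Irgm1*, of *Isg15* as the ubiquitin-like effector and of *B2m*. They are written 5′ to 3′ on the strand of the gene, and capitals mark the matched letters.
Igtp (chr11:58199306-58199605, plus strand): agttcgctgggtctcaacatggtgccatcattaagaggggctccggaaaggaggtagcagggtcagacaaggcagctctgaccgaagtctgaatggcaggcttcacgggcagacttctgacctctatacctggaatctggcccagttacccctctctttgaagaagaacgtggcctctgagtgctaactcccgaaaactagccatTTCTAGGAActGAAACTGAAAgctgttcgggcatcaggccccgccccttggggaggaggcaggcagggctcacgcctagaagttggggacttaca
Irgm2 (chr11:58214727-58215026, plus strand): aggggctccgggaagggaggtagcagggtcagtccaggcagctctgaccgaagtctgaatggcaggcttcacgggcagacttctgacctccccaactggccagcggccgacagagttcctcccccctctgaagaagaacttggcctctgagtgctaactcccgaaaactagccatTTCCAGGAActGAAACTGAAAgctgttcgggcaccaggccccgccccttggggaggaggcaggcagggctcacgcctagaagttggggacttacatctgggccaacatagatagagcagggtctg
Tgtp1 (chr11:48992197-48992496, minus strand): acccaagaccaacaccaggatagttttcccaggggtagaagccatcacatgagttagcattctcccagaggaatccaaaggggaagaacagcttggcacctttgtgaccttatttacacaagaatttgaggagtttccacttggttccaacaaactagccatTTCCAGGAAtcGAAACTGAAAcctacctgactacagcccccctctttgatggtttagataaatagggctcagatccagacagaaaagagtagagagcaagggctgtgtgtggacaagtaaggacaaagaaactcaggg
Irgm1 (chr11:48871371-48871670, minus strand): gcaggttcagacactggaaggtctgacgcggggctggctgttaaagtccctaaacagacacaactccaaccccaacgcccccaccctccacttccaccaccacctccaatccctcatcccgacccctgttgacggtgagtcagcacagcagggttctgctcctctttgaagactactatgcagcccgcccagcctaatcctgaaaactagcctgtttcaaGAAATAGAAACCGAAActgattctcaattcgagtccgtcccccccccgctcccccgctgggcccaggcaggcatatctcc
Isg15 (chr4:156200769-156201068, minus strand): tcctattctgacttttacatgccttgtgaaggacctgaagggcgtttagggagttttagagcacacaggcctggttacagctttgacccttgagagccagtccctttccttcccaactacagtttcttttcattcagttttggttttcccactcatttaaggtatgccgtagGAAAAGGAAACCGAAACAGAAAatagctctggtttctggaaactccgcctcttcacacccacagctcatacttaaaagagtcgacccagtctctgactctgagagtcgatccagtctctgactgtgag
B2m (chr2:122147437-122147736, plus strand): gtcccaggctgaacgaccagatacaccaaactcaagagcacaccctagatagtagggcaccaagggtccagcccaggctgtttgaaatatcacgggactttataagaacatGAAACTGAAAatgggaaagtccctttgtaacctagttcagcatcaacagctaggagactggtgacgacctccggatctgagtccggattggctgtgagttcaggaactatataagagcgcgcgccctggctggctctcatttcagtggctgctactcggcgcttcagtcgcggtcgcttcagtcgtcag
In *Igtp*, *Irgm2* and *Tgtp1* the GAS began 11 bases before the ISRE, at positions -45, -75 and -88 from the start. *Igtp* and *Irgm2* shared an identical run of 61 bases and *Irgm2* and *Tgtp1* one of 20 bases, while the longest run that *Irgm1* shared with *Igtp* was 11 bases. The *Irgm1* window held 2 overlapping ISRE matches and no GAS, that of *Isg15* held 3 overlapping ISRE matches, and that of *B2m* held 1 ISRE at -139. No match was found for *Xaf1* or in either window of *Irf9*. A match is a description of letters and not evidence of binding.

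*Trp53*, the targeted gene, lay at 131, 130, 217 and 110 in FL and at 876, 688 and 831 in WT, in normalised counts. On average FL livers held 18.4% of the WT level (log2 fold change -2.48 ± 0.23 SE, limma adjusted p = 0.0447). That adjusted p was 0.00488 without FL replicate 3 and 0.0597 to 0.32 without any other single liver. Estimated reads on genes were 11.9 to 19.5 M per liver. Of all genes, 2 passed the adjusted threshold of 0.05 and 401 had an unadjusted p under 0.05. WT replicate 2 stood apart on the first principal component (82.0, 66.7% of the variance), FL replicate 3 lay at 29.2, and the other 5 livers lay between -25.6 and -19.1. The 6 hepatocyte markers, which include *Alb*, were abundant in every liver and summed to 1362139 to 1747429 normalised counts in FL and to 1168639 to 1417287 in WT. *Alb* made up most of these sums, at 1118758 to 1511638 in FL and 956556 to 1200274 in WT. All 6 were higher on average in FL. Without WT replicate 2 and FL replicate 3 their sum was 1362139 to 1651746 in FL and 1168639 to 1245624 in WT, with no overlap. In those 5 livers 4 of the 6 genes were higher in FL without overlap, against 12.8% of all genes.

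None of the 44 members passed the adjusted threshold, which 0.0159% of all genes did (limma, adjusted p = 0.999 for each member). The log2 fold change was above 0 for 32 members and below 0 for 12. An unadjusted p under 0.05 was reached by 6 members that were higher in FL, against 1.59% of all genes tested, and by 0 that were lower, against 1.6%. That count of 6 was 12 without FL replicate 1, 3 without FL replicate 4, 2 without WT replicate 3 and 5 to 8 without any other liver. The FL and WT values did not overlap for 5 members, all higher in FL, against 2.77% of all genes, and for 0 that were lower, against 1.98%. The median log2 fold change was 0.34 for the interferon-induced members, 0.11 for class I and -0.73 for class II, beside 0.01 for all genes tested. Without FL replicate 3 the interferon-induced median was 0.13, without WT replicate 2 the class II median was -0.14, while the class I median ran from 0.06 (without FL replicate 3 or WT replicate 3) to 0.16 (without FL replicate 2) and was -0.03 under quantile normalisation. Because RNA came from whole liver, fewer cells of a type and less RNA per cell cannot be told apart.

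**Figure D1:**
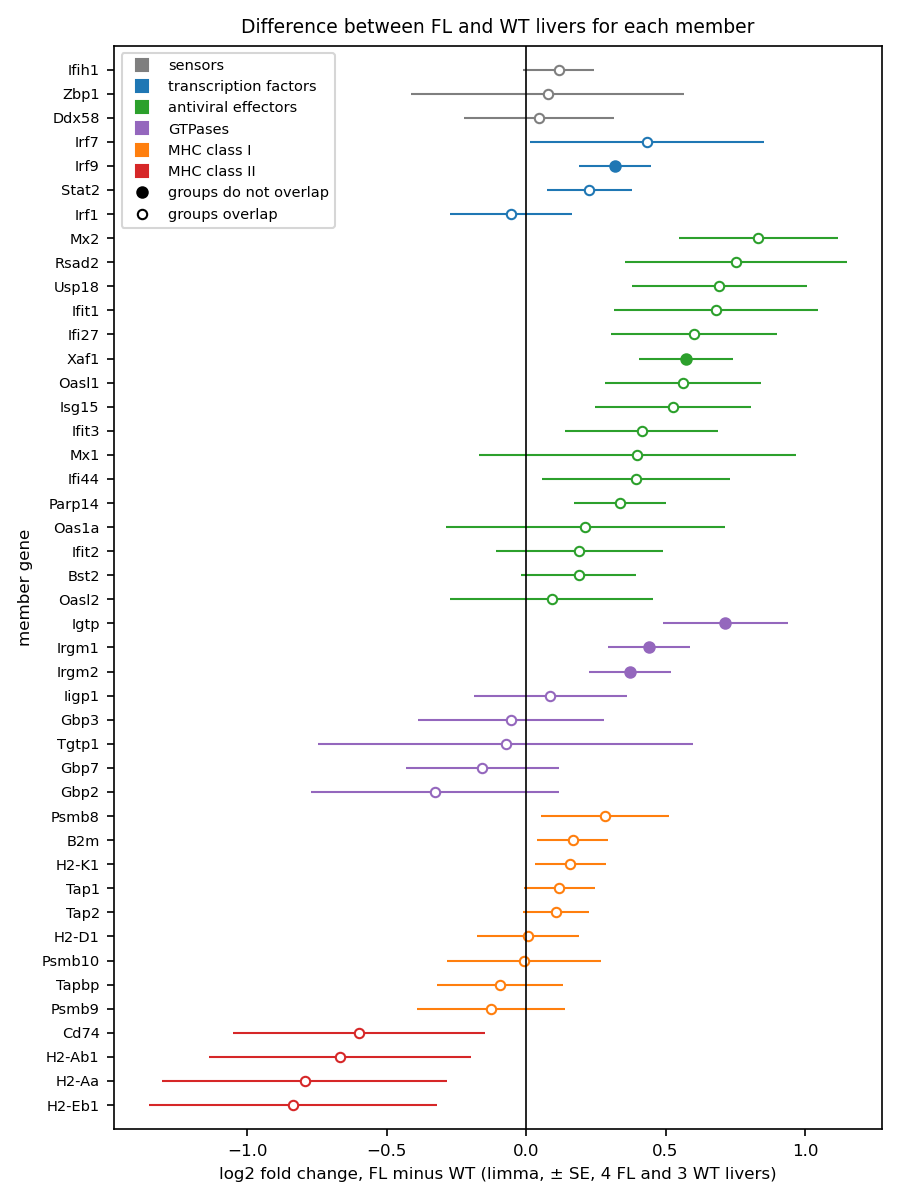
The log2 fold change of each of the 44 members (x axis, FL minus WT, limma, bars ± SE from 4 FL and 3 WT livers), grouped by role in colour on the y axis. Filled points are the 5 members whose groups do not overlap, and the 4 class II members lie at the bottom between -0.84 and -0.60.

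Single livers stood out across the members. Of the 44 members, 30 had their highest value in FL replicate 3 (68.2%, beside 11.7% of all genes tested) and 8 in WT replicate 2 (18.2%, beside 31.6%). The lowest of the 4 FL livers was FL replicate 1 for 27 members (61.4%, beside 23.1% of all genes). In FL replicate 3 the median member was raised in every role, by 0.40 to 0.81 log2 units over each gene's median liver. In WT replicate 2 class II was raised by 1.80, sensors by 0.65, GTPases by 0.46 and transcription factors by 0.21, while antiviral effectors and class I were at 0.00.

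**Figure D2:**
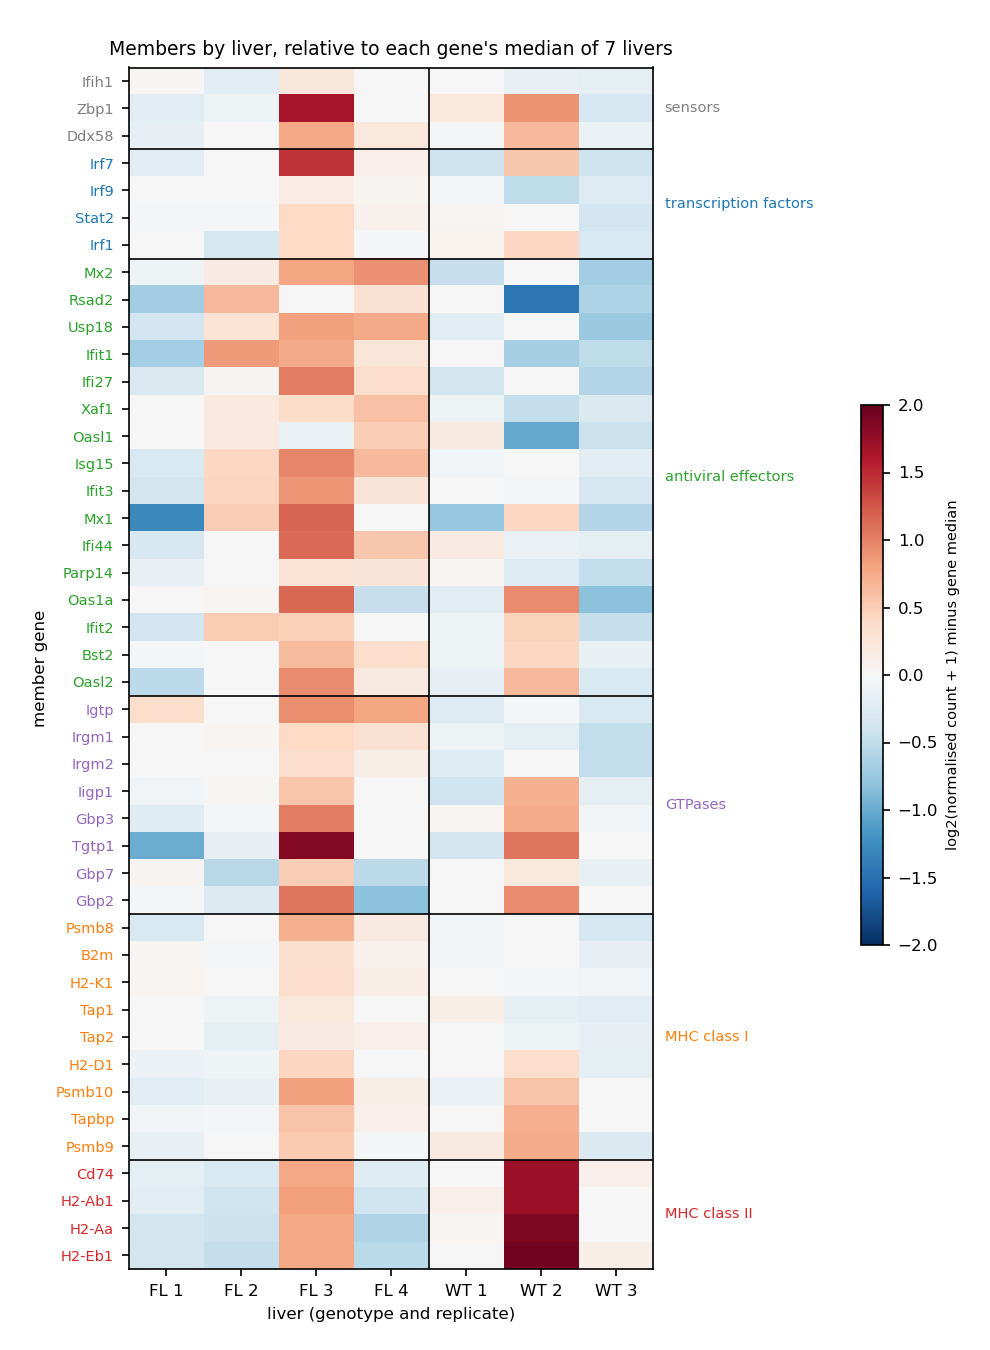
Each row is 1 of the 44 members and each column 1 liver, and colour gives log2(normalised count + 1) minus the median of that gene over the 7 livers, from -2 (blue) to 2 (red). FL 3 is red over most rows of every role, WT 2 is darkest in the 4 class II rows, and FL 1 is blue over most antiviral effectors.

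**Figure D3:**
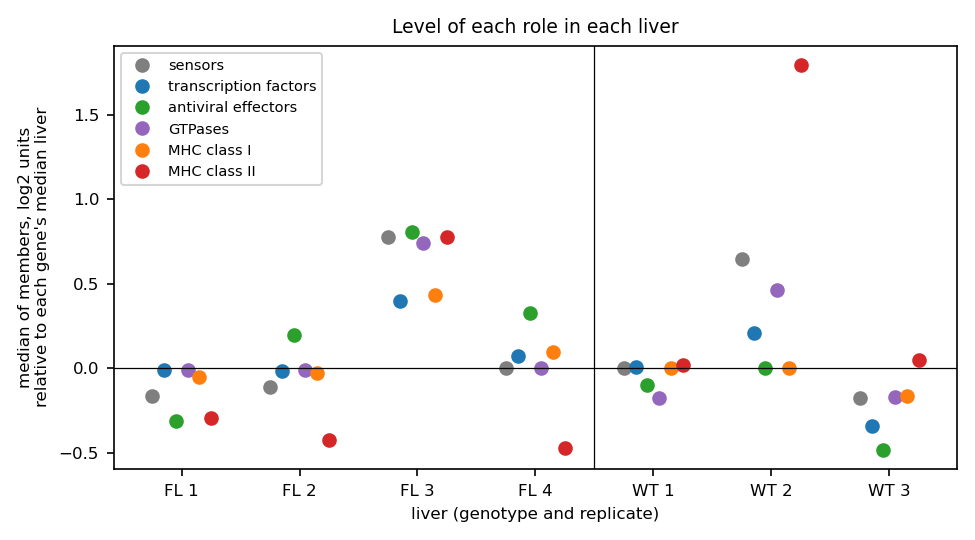
For each liver (x axis), points give the median over the members of a role of log2(normalised count + 1) relative to each gene's median liver (y axis, log2 units). Class II is at 1.80 in WT 2 and 0.78 in FL 3, and antiviral effectors run from -0.48 in WT 3 to 0.81 in FL 3.

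The sensors detect foreign nucleic acid and start interferon production, and none of the 3 separated the genotypes. *Ifih1*, a receptor of long double-stranded RNA, was at 508, 433, 589 and 503 normalised counts in FL and at 502, 454 and 444 in WT. The groups overlapped, with a log2 fold change of 0.12 ± 0.13 (SE). *Ddx58*, which encodes RIG-I, a receptor of RNA ends, was at 330, 370, 634 and 428 in FL and at 359, 580 and 338 in WT. Its highest value in each genotype fell in FL replicate 3 and WT replicate 2, and the log2 fold change was 0.05 ± 0.27. *Zbp1*, a sensor of Z-form nucleic acid that can trigger cell death, was at 94, 101, 342 and 109 in FL and at 126, 203 and 86 in WT. FL replicate 3 held 3.39 times the median of the other FL livers, and the log2 fold change of 0.08 ± 0.49 became -0.04 when FL replicate 3 and WT replicate 2 were left out.

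Of the transcription factors, *Irf9*, the DNA-binding subunit of the type I complex, was at 1153, 1147, 1278 and 1194 normalised counts in FL and at 1132, 807 and 954 in WT. All FL livers lay above all WT livers, by 15 counts between the nearest pair, which were FL replicate 2 and WT replicate 1. The mean was 1193 ± 60.4 in FL (SD, n = 4) and 964 ± 163 in WT (SD, n = 3), a log2 fold change of 0.32 ± 0.13 (limma adjusted p = 0.999). The exact two-sided permutation test over the 35 assignments of livers gave p = 0.0286 for *Irf9*, the smallest it can give. *Stat2*, its partner in that complex, was at 1673, 1660, 2243 and 1805 in FL and at 1731, 1695 and 1305 in WT. The groups overlapped, with WT replicate 3 lowest and a log2 fold change of 0.23 ± 0.15. *Irf7*, which amplifies interferon-α production, was at 739, 854, 2334 and 919 in FL and at 644, 1235 and 642 in WT. FL replicate 3 was highest and WT replicate 2 second, and the log2 fold change was 0.43 ± 0.42. *Irf1*, a mediator of interferon-γ signals, was at 612, 479, 804 and 604 in FL and at 641, 818 and 495 in WT, and its log2 fold change of -0.05 ± 0.22 became 0.12 without WT replicate 2.

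All 16 antiviral effectors had a log2 fold change above 0, from 0.09 to 0.83 with a median of 0.47, and none changed sign under quantile normalisation or the trimmed mean of M-values. Of them, 2 reached an unadjusted p under 0.05, against 1.59% of all genes higher at that level, and 1 did not overlap, against 2.77%. The sign of *Ifit2*, *Oasl2* and *Oas1a* turned when 1 of the livers was left out. *Mx2*, a dynamin-like antiviral GTPase, was at 155, 186, 287 and 311 normalised counts in FL and at 119, 165 and 102 in WT. In 3 of the 4 FL livers it lay above every WT liver, FL replicate 1 being the exception. The mean was 235 ± 75.9 in FL (SD, n = 4) and 129 ± 32.6 in WT (SD, n = 3), a ratio of 1.82 and a log2 fold change of 0.83 ± 0.28 (limma p = 0.0194, adjusted p = 0.999, exact permutation p = 0.114).

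*Rsad2*, which encodes viperin, an enzyme that makes a chain-terminating nucleotide, was at 754, 1919, 1230 and 1518 in FL and at 1225, 448 and 800 in WT. FL replicate 1 lay below 2 of the 3 WT livers, WT replicate 2 was the lowest liver of all, and the log2 fold change was 0.75 ± 0.40. *Usp18*, which removes ISG15 from proteins and restrains the type I receptor, was at 310, 486, 712 and 682 in FL and at 343, 403 and 240 in WT. Apart from FL replicate 1, the FL livers exceeded every WT liver, and the log2 fold change was 0.69 ± 0.31 (limma adjusted p = 0.999, exact permutation p = 0.143). *Isg15*, a ubiquitin-like modifier, was at 135, 224, 328 and 263 in FL and at 161, 167 and 143 in WT. Here FL replicate 1 was the lowest of the 7 livers while the other FL livers lay above every WT liver, and the log2 fold change was 0.53 ± 0.28.

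*Xaf1*, an interferon-induced partner of the apoptosis inhibitor XIAP, is named because its groups did not overlap and was chosen after its values were seen. It was at 232, 267, 299 and 347 in FL and at 216, 167 and 190 in WT. Every FL liver lay above every WT liver, with FL replicate 1 and WT replicate 1 nearest. The mean was 286 ± 48.9 (SD, n = 4) against 191 ± 24.5 (SD, n = 3), a log2 fold change of 0.57 ± 0.17 and the lowest unadjusted p of the 44 members (limma p = 0.00933, rank 79 of all genes, adjusted p = 0.999, exact permutation p = 0.0571).

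Among the remaining effectors, *Oasl1*, which restrains *Irf7* translation, averaged 1074 ± 210 in FL and 760 ± 313 in WT (SD, n = 4 and 3). *Ifi27* averaged 2003 ± 820 and 1264 ± 264, and *Ifit1*, which binds viral RNA lacking the host cap modification, 336 ± 136 and 197 ± 49.3. *Bst2*, which encodes the membrane tether tetherin, was the highest effector per length, at a mean of 3675 normalised counts per kb of exon, and averaged 3505 ± 774 in FL and 3069 ± 697 in WT. The groups overlapped for all of these. FL replicate 1 was the lowest FL liver for 14 of the 16 effectors (87.5%). *Oas1a* shared 65.7% of its stretches of 36 bases with other transcripts, mostly those of *Oas1g*, and *Ifit3* shared 58.5%, mostly with *Ifit3b*, so the counts of these 2 members are uncertain.

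The GTPases, whose effector members attack the membranes of vacuoles that hold pathogens, had no common sign. Of 8 measured, 4 had a log2 fold change above 0 and 4 below, with a median of 0.02. *Igtp*, which encodes IRGM3, a regulator of the family, was at 1148, 902, 1727 and 1551 normalised counts in FL and at 754, 885 and 728 in WT. The groups did not overlap, with FL replicate 2 only 17 counts above WT replicate 2. The mean was 1332 ± 375 in FL (SD, n = 4) and 789 ± 84.1 in WT (SD, n = 3), a ratio of 1.69 and a log2 fold change of 0.71 ± 0.22 (limma p = 0.0131, adjusted p = 0.999, exact permutation p = 0.0571).

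*Irgm1*, a further regulator of this family that takes part in autophagy, was at 1134, 1167, 1488 and 1402 in FL and at 1060, 999 and 809 in WT. All 4 FL livers exceeded all 3 WT livers, and the log2 fold change was 0.44 ± 0.15 (limma p = 0.017, adjusted p = 0.999, exact permutation p = 0.0286). *Irgm2*, the remaining regulatory member, was at 1091, 1094, 1394 and 1189 in FL and at 911, 1084 and 778 in WT. The groups did not overlap, by 7 counts between FL replicate 1 and WT replicate 2, and the log2 fold change was 0.37 ± 0.15 (limma p = 0.035, adjusted p = 0.999, exact permutation p = 0.0286). In the annotation the model of *Irgm2* overlaps 7974 of the 8036 bases of *Igtp* on the same strand, and 14.7% and 9.82% of the 36-base stretches of *Igtp* and *Irgm2* occur in other transcripts, so reads of these neighbours could have been divided between them or dropped.

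The effector GTPase *Iigp1* overlapped between genotypes, with 1541 to 2347 in FL, 1222 to 2627 in WT and its highest value in WT replicate 2. *Tgtp1* was low, at 8 to 63 normalised counts, and 83.5% of its stretches occur in other transcripts, mostly those of *Tgtp2*. The guanylate-binding proteins *Gbp2*, *Gbp3* and *Gbp7* had log2 fold changes of -0.33, -0.05 and -0.16, and each was highest in FL replicate 3.

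**Figure D4:**
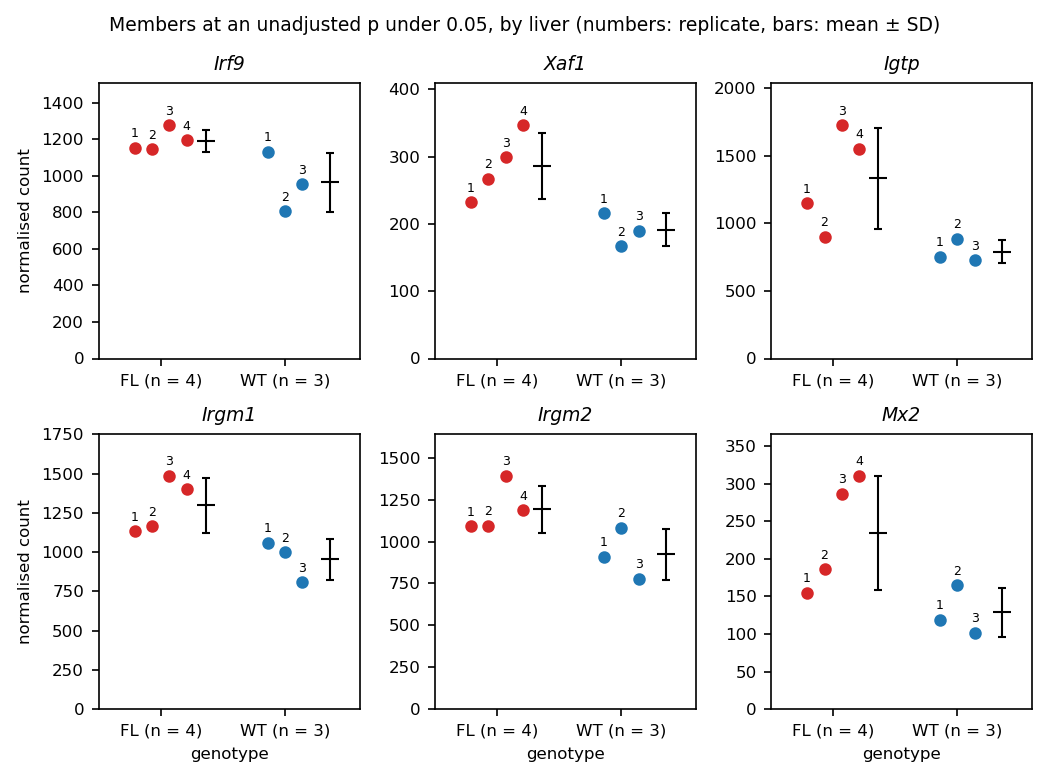
Normalised counts (y axes from 0) of the 6 members with an unadjusted p under 0.05, with 1 point per liver numbered by replicate, FL in red and WT in blue, and bars for the mean ± SD. The groups are apart for *Irf9*, *Xaf1*, *Igtp*, *Irgm1* and *Irgm2*, and for *Mx2* FL 1 lies below WT 2.

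Of the 5 members whose groups did not overlap, 4 lie on chromosome 11, which also carries *Trp53* (GRCm38, chr11:69580359-69591873). *Xaf1* lies 2.72 Mb from *Trp53*, *Igtp* and *Irgm2* 11.4 Mb and *Irgm1* 20.7 Mb. The other 2 members on that chromosome, *Irf1* and *Tgtp1*, overlapped between genotypes, as did 37 of the 38 members elsewhere. Over all genes tested, the groups did not overlap with FL higher for 4.67% of 1049 genes on chromosome 11 and for 2.6% of 11496 genes elsewhere. This grouping by chromosome was chosen after the values were seen. Alleles inherited with the floxed *Trp53* and the loss of *Trp53* cannot be told apart in these livers.

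Per length of exon, *B2m* and *H2-K1* were the most abundant of the 44 members, and both varied little between livers. *B2m*, the invariant light chain of class I, was at 16183, 15630, 19814 and 16872 normalised counts in FL and at 15390, 15940 and 14299 in WT. The groups overlapped because WT replicate 2 lay above FL replicate 2, and the log2 fold change was 0.17 ± 0.13. *H2-K1*, a classical heavy chain, was at 18902, 18252, 23415 and 20063 in FL and at 18323, 17909 and 17713 in WT. It lay above every WT liver in 3 of 4 FL livers, at a log2 fold change of 0.16 ± 0.13. *H2-D1*, the other classical heavy chain, was at 7950, 8127, 11568 and 8582 in FL and at 8603, 10952 and 7501 in WT, and its log2 fold change was 0.01 ± 0.18. The coefficient of variation over the 7 livers was 10.7% for *B2m* and 10.4% for *H2-K1*, and the ratio of the *H2-K1* to the *B2m* count stayed between 1.12 and 1.24. Per kb of exon the mean over the livers was 18958 for *B2m*, 6544 for *H2-K1* and 3505 for *H2-D1*. Under quantile normalisation the log2 fold changes of these 3 genes were -0.03, -0.06 and -0.13, and 17.6% and 21.7% of the 36-base stretches of *H2-K1* and *H2-D1* are shared with other transcripts.

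*Psmb8*, a catalytic subunit of the immunoproteasome, was at 338, 417, 680 and 475 in FL and at 401, 417 and 328 in WT, with a log2 fold change of 0.28 ± 0.23. FL replicate 3 was highest and the groups overlapped. The other immunoproteasome subunits, *Psmb9* and *Psmb10*, had log2 fold changes of -0.13 and -0.01. *Tap1* and *Tap2*, which together form the peptide transporter, averaged 923 ± 86.7 and 526 ± 54.1 in FL and 852 ± 114 and 487 ± 27.7 in WT (SD, n = 4 and 3). *Tapbp*, which encodes tapasin, averaged 1576 ± 337 in FL and 1705 ± 529 in WT. Of the 9 class I members, 0 had non-overlapping groups, against 2.77% of all genes higher and 1.98% lower. An unadjusted p under 0.05 was reached by 0, against 1.59% higher and 1.6% lower. Both counts of 0 are near the shares over all genes.

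The MHC class II members moved together and were lower in the mean of FL, and the size rested on WT replicate 2, without which their median log2 fold change was -0.14 and not -0.73. *H2-Aa*, an α chain, was at 406, 386, 890 and 345 normalised counts in FL and at 539, 1906 and 523 in WT. *H2-Ab1*, its β chain, was at 406, 359, 838 and 360 in FL and at 513, 1576 and 476 in WT. *H2-Eb1*, the β chain of the other class II molecule, was at 327, 301, 721 and 289 in FL and at 421, 1606 and 457 in WT. In each of them WT replicate 2 was highest, FL replicate 3 came second, and the other FL livers lay below the other WT livers. *Cd74*, the invariant chain that guards the class II groove, was at 1388, 1260, 2676 and 1316 in FL and at 1564, 5193 and 1677 in WT, in the same order. WT replicate 2 held 3.19 to 3.66 times the mean of the other WT livers, and FL replicate 3 held 2.03 to 2.40 times the median of the other FL livers. The ratio of *H2-Aa* to *H2-Ab1* counts nonetheless stayed between 0.958 and 1.21 over the 7 livers.

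With all livers the log2 fold changes were -0.79 ± 0.51 for *H2-Aa*, -0.67 ± 0.47 for *H2-Ab1*, -0.84 ± 0.52 for *H2-Eb1* and -0.60 ± 0.45 for *Cd74*, none past the threshold (limma adjusted p = 0.999). Without WT replicate 2 and FL replicate 3 they were -0.49 ± 0.11, -0.40 ± 0.11, -0.52 ± 0.11 and -0.29 ± 0.09. In that fit of 3 FL and 2 WT livers the unadjusted limma p ran from 0.000894 for *H2-Eb1* to 0.00708 for *Cd74*, and the adjusted p from 0.169 to 0.325. All 4 were lower in FL without overlap, against 14.6% of all genes in those 5 livers, and all 4 had an unadjusted p under 0.05, against 5.17%. The 8 other class II genes tested did not show this in the same livers. Of them, 5 had a log2 fold change above 0 and 3 below, with a median of 0.07. None was lower without overlap or lower at an unadjusted p under 0.05, and 1 was higher without overlap, against 12.8%. Several were too low to resolve a change of the members' size. *H2-DMa* was at -0.01 ± 0.22 (SE), *H2-DMb1* at -0.20 ± 0.31, *H2-Ob* at -0.12 ± 0.40, *Ciita* at 0.10 ± 0.37 and *March1* at 0.13 ± 0.34. *Ctss*, *Lgmn* and *Ifi30* had smaller errors, at 0.20 ± 0.11, 0.17 ± 0.10 and 0.04 ± 0.13.

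Several marker lists of other cells were high in the same livers, and others were not. The 8 macrophage markers summed to 4872 to 7806 normalised counts in FL and to 4864 to 12545 in WT, and 7 of 8 were highest in WT replicate 2. The 6 dendritic cell markers summed to 217 to 305 in FL and to 254 to 537 in WT, with 5 of 6 highest in that liver and *Flt3* at 0 in FL replicate 1. B cell markers ran from 29 to 102 in FL and from 24 to 170 in WT, all 4 highest in WT replicate 2, with *Ms4a1* at 0 in FL replicate 4. The 7 T and NK cell markers summed to 32 to 80 in FL and 42 to 186 in WT, with 6 of 7 highest in that liver, *Gzma* at 0 in FL replicate 1 and *Cd8a* at 0 in FL replicate 4. Stellate cell markers ran from 2508 to 3122 in FL and from 2355 to 6842 in WT, and all 5 were highest in WT replicate 2. Endothelial cell markers ran from 2164 to 2506 in FL and from 1973 to 2705 in WT, with 3 of 5 highest in that liver, and 9 of 10 proliferation markers were highest there (358 to 633 in FL and 414 to 1628 in WT). Of the 4 neutrophil markers with a row, 1 was highest there, and the sums were 19 to 60 in FL and 40 to 67 in WT. Cholangiocyte markers summed to 335 to 881 in FL, lowest in FL replicate 3, and to 386 to 555 in WT. None of the 4 was highest in WT replicate 2 or FL replicate 3, and 3 of 4 did not overlap between genotypes. *Krt19* and *Krt7* were lower in FL, against 1.98% of all genes, and *Sox9* was higher, against 2.77%. The part of these cells in the class II values was not tested. In the 5 other livers the macrophage sum was 4872 to 6138 in FL and 4864 to 5513 in WT, and the dendritic cell sum 217 to 268 and 254 to 267, so both overlapped. The T and NK cell sum there was 32 to 40 in FL and 42 to 50 in WT. That sum was lower in FL without overlap, as were the class II members, but all 7 markers were under 50 in every liver. Single markers were also lower in FL without overlap in these livers, against 14.6% of all genes. They were 3 of 4 for cholangiocytes, 2 of 7 for T and NK cells and 1 of 4 for neutrophils. For stellate cells 1 of 5 was lower, for dendritic cells 1 of 6, for proliferation 1 of 10 and in the other lists 0.

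**Figure D5:**
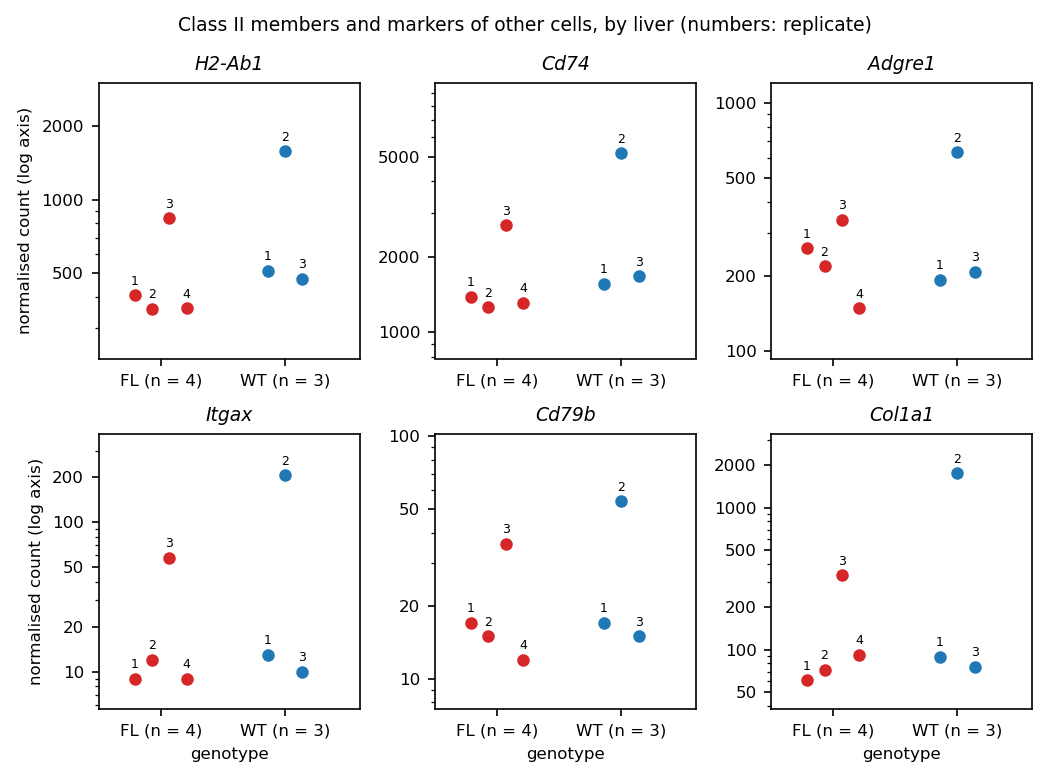
Normalised counts on log axes for the class II members *H2-Ab1* and *Cd74* and for markers of macrophages (*Adgre1*), dendritic cells (*Itgax*), B cells (*Cd79b*) and stellate cells (*Col1a1*), with 1 point per liver numbered by replicate. WT 2 is the highest liver in all 6 panels and FL 3 the second highest. Each marker is 1 of its list, and others differed: *Timd4* (macrophages) was highest in FL 1 and *Zbtb46* (dendritic cells) in WT 1. FL 3 was the highest FL liver for 6 of 8 macrophage and 4 of 6 dendritic cell markers. The same held for 4 of 4 B cell and 4 of 5 stellate cell markers.

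Without WT replicate 2 and FL replicate 3, 9 members were higher in FL at an unadjusted p under 0.05, against 4.57% of all genes, and 11 were higher without overlap, against 12.8%. The 5 members lower without overlap, against 14.6% of all genes, were the 4 class II members and *Gbp2*. The hepatocyte marker sum, most of it *Alb*, was also higher in FL without overlap in these livers, and its part in these values was not tested. Those 9 were all interferon-induced, and they included *Irf7* (log2 fold change 0.37 ± 0.11, limma adjusted p = 0.323), *Mx2* (0.91 ± 0.26, adjusted p = 0.308) and *Irgm2* (0.42 ± 0.10, adjusted p = 0.245). *Irf9*, with 0.16 ± 0.10, no longer reached that level (limma adjusted p = 0.63). No member passed the adjusted threshold among these livers either, where 0.0487% of all genes did.

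Further genes of the pathway were counted beside the members. Of 120 listed, 100 had a row and 94 were tested, and none passed the adjusted threshold. An unadjusted p under 0.05 was reached by 3, all higher in FL, against 1.59% of all genes. Without overlap, 4 were higher, against 2.77%, and 1 was lower, against 1.98%, so the counts without overlap were near the shares over all genes. The median log2 fold change of the 94 was 0.03, but it pooled lists that differed. For the 32 other induced genes it was 0.21, with 25 genes above 0 and 7 below. Of these 32, 3 were higher without overlap, against 2.77% of all genes, and 0 were lower. The median was 0.10 for signalling genes, 0.06 for inhibitors and -0.0007 for other class I genes. It was -0.17 for receptors, -0.28 for other GTPases and -0.35 for other class II genes. *Dhx58*, a regulator of the RNA sensors that lies on chromosome 11, 31.1 Mb from *Trp53*, was at 306, 319, 407 and 393 normalised counts in FL and at 265, 246 and 240 in WT. Every FL liver exceeded every WT liver, and the log2 fold change was 0.50 ± 0.14 (limma adjusted p = 0.999, exact permutation p = 0.0286). *Parp9*, a partner of the ubiquitin ligase DTX3L, was at 918, 1000, 1087 and 1084 in FL and at 846, 910 and 691 in WT. *Adar*, which edits double-stranded RNA, was at 1028, 1041, 1117 and 1070 in FL and at 1002, 763 and 814 in WT. *Isg20*, an exonuclease, was at 149, 150, 147 and 150 in FL and at 139, 109 and 123 in WT. In these 3 genes, as in *Dhx58*, no WT liver reached an FL liver. *Ikbke*, a kinase upstream of IRF factors, was the 1 gene lower without overlap, at 658, 620, 664 and 593 in FL and at 844, 672 and 671 in WT.

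The ligands were scarcely represented. Of 12 interferon genes listed, *Ifnk* alone had a row, at 0 to 7 normalised counts, and the others were not analysed here. The receptor chains were measured and overlapped between genotypes. *Ifnar1* and *Ifnar2*, the type I receptor, averaged 778 ± 53.9 and 883 ± 62.6 in FL and 828 ± 37.4 and 821 ± 63.3 in WT (SD, n = 4 and 3). *Ifngr1*, the ligand-binding chain of the interferon-γ receptor, ran from 578 to 717 in FL and from 688 to 824 in WT, and *Ifngr2*, its partner, from 515 to 629 and from 618 to 642, so both overlapped. *Nlrc5*, the transactivator of class I genes, averaged 429 ± 58.1 and 426 ± 6.51, a log2 fold change of -0.00146 ± 0.13. *Ciita*, the transactivator of class II genes, was at 22, 17, 44 and 11 in FL and at 14, 79 and 16 in WT. Like the class II members it was highest in WT replicate 2 and second in FL replicate 3, but FL replicates 1 and 2 lay above WT replicates 1 and 3. None of the 20 other class I genes and none of the 8 other class II genes tested had non-overlapping groups. Over all genes 2.77% were higher and 1.98% lower without overlap, so these counts of 0 are near those shares. All 8 other class II genes were highest in WT replicate 2. Without that liver and FL replicate 3, 6 of the 20 other class I genes were lower without overlap, against 14.6% of all genes. In the same livers 4 were higher, against 12.8%. An unadjusted limma p under 0.05 was reached there by 3 that were lower, against 5.17%, and 1 that was higher, against 4.57%.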

How the data were processed

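RNA of 7 livers was sequenced from both ends. The submitters' processing notes name TopHat2 (2.0.13), Bowtie2 (2.2.6.0), featureCounts, HTSeq (2.2.4.0) and DESeq2, and a genome build with a human name. The deposited values are counts that the authors divided by DESeq2 size factors and rounded, so they were used as a score and no count model was run. The 14988 rows held 14851 Ensembl identifiers, with repeats of equal value kept once and 0 columns unused. Symbols, exon lengths and coordinates came from GENCODE for GRCm38.

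Genotypes were compared by limma (3.58.1, R 4.3.3, eBayes with trend) on log2(normalised count + 1), which understates changes of low genes, with Benjamini-Hochberg adjustment over 12545 genes. Single genes were also tested by exact permutation. Depth was estimated from the spacing of low values and covers counting error only, which was small beside differences between livers (chi-square per degree of freedom 10.0 to 133.7 within genotype). The fit was tested on simulated data. Other pseudocounts, filters, scalings, limma settings, a replicate block and fewer livers were tried.

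Members and lists were chosen with earlier results of these data known. Values in every liver are given for the 3 members of each role with the largest absolute log2 fold change, all class II members, *B2m*, *H2-K1*, *H2-D1*, *Stat2*, *Irf1* and *Isg15*, and pathway genes without overlap.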

Additional observations from a re-analysis of the deposited data

Results flagged for a closer look

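A liver far from the other 3 was looked for in the 4 FL livers by Dixon's criterion, for *Trp53* and the 44 members. It was met by 9 of 45 results, beside 2.25 that chance gives if genes were independent, which genes of 1 liver are not. The liver was FL replicate 3 in each of them, and it was the highest. *Zbp1* was at 342 there against 94 to 109 in the other FL livers, *Irf7* at 2334 against 739 to 919, *Gbp3* at 239 against 99 to 117, *Iigp1* at 2347 against 1541 to 1631 and *Tgtp1* at 63 against 8 to 17. The class II genes were all among them, with *H2-Aa* at 890 against 345 to 406, *H2-Ab1* at 838 against 359 to 406, *H2-Eb1* at 721 against 289 to 327 and *Cd74* at 2676 against 1260 to 1388 normalised counts. The 3 WT livers were not tested by this criterion. The part of other cell types in these values was not tested.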

How the results depend on the processing

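None of the 44 members passed the adjusted threshold under any alternative tried (limma, lowest adjusted p 0.169), and 29 members kept the sign of their log2 fold change under all of them. Members at an unadjusted p under 0.05 numbered 6, with 0 to 13 over the alternatives. The count of all genes past the threshold, 2 with the main settings, was 0 with a pseudocount of 5, with at least 10 in every liver, with a mean of at least 50 and without the trend, 1 with quantile normalisation, 6 without WT replicate 2 and FL replicate 3, and 0 to 5 with 1 liver left out (the 5 without WT replicate 3). *Trp53* lost its call in 11 of 18 alternatives, with a log2 fold change of -2.78 to -2.35. The causes were not tested.

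Signs turned with quantile normalisation for *Tgtp1* (0.17), *B2m* (-0.0269), *H2-K1* (-0.0624) and *H2-D1* (-0.13), with the trimmed mean of M-values for *Psmb10* (0.0067), and without WT replicate 2 and FL replicate 3 for *Zbp1* (-0.0413) and *Tapbp* (0.0097). With 1 liver left out, ranges that crossed 0 were -0.14 to 0.29 for *Ddx58*, -0.36 to 0.40 for *Zbp1*, -0.24 to 0.12 for *Irf1*, -0.0209 to 0.43 for *Ifit2*, -0.17 to 0.38 for *Oasl2*, -0.18 to 0.70 for *Oas1a*, -0.33 to 0.20 for *Gbp3*, -0.13 to 0.42 for *Iigp1*, -0.63 to 0.35 for *Tgtp1*, -0.38 to 0.14 for *Psmb9*, -0.23 to 0.20 for *Psmb10*, -0.23 to 0.15 for *Tapbp* and -0.12 to 0.16 for *H2-D1*.

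Deviations of livers with the same replicate number correlated at 0.438, -0.483 and -0.661, and not every liver correlated best with its own number. FL replicate 3 and WT replicate 2, which lay apart from the other livers, correlated at 0.765. These correlations largely follow those livers and cannot decide whether mice were paired. With the replicate block, over 6 livers, 0 genes passed, 110 had an unadjusted p under 0.05, and *Gbp3* (0.0092) and *Psmb10* (0.0018) turned sign. Tests on counts with edgeR and DESeq2 were not run, because rounding hides whole reads where 1 read is worth less than 1 normalised count, as in 4 of the 7 libraries. Depth limits little here beside the differences between livers.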

Other observations

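The genes below are outside the rule for named genes and were chosen after their values were seen. *Cmpk2*, a nucleotide kinase gene that lies next to *Rsad2*, was at 169, 507, 315 and 378 normalised counts in FL and at 296, 157 and 198 in WT. The order of the livers was the same as for *Rsad2*, with FL replicate 2 highest and WT replicate 2 lowest in both. *Ly6e*, an interferon-induced surface protein, was at 2852, 3020, 9394 and 4087 in FL and at 2889, 8930 and 2787 in WT, with FL replicate 3 and WT replicate 2 far above the other livers. *Cxcl9*, a chemokine induced by interferon-γ, was at 221, 115, 540 and 130 in FL and at 196, 719 and 231 in WT, with the same pair of livers highest and WT replicate 2 above FL replicate 3, as in class II. *H2-Q10*, a secreted class I protein made mainly by liver, was at 26064, 29368, 28469 and 29591 in FL and at 25949, 30170 and 25638 in WT, and its groups overlapped.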
